A study of Homo sapiens with 8 samples.

Results

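The genes that copy DNA in S phase and the genes that divide the cell in mitosis were followed through the RNA-seq of RT112 and UM-UC-3 after knock-down of PAI-1. RT112 and UM-UC-3 are established cell lines from human bladder cancer. The members were 52 named genes, found by symbol among the 27475 human genes of the deposited table, and each had 1 entry and was above 0 in all 8 libraries. A group held 2 libraries. UM-UC-3 Scr and RT112 Scr were transfected with a pool of 3 scrambled negative control siRNAs, and UM-UC-3 siPAI-1 and RT112 siPAI-1 with a pool of 3 siRNAs against PAI-1, in each case 100 pmol for 72 h. All 4 groups therefore went through the same transfection, and neither line had an untransfected library. The lines were kept in RPMI 1640 or DMEM, and the labels do not say which line had which, so that line and medium cannot be told apart. The study's own results describe more independent replicate experiments of the knock-down than the 2 libraries of a group, and the labels do not tie a library to one of them. The p-values therefore measure only the spread between these libraries, which may be technical.

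DNA replication starts at origins. CDC6 and CDT1 load the ring of MCM2 to MCM7 on DNA in G1, which licenses the origin, and in S phase CDC45 and the GINS complex join the ring to form the working helicase. E2F transcription factors and cyclin E with CDK2 drive the entry into S phase. After replication, cyclins A and B with CDK1, PLK1 and the Aurora kinases take the cell into mitosis, the kinetochore ties chromosomes to the spindle, the checkpoint kinases hold the cell until all are tied, and the anaphase-promoting complex (APC/C) then ends mitosis by marking cyclins for destruction. In a growing culture the RNAs of the first set peak around the start of S phase and those of the other set in G2 and mitosis. The 52 members were sorted by these roles into 22 genes of G1/S and replication and 30 genes of G2/M and mitosis.

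Levels are given in TPM, which is scaled for transcript length and to the same total in every library. All 6 epithelial markers and 5 of the 6 urothelial markers were higher in every RT112 library than in every UM-UC-3 library, with the epithelial cadherin CDH1 at 141 to 149.6 TPM and the urothelial factor GATA3 at 103 to 127 TPM in RT112, and at most 0.48 and 1.38 TPM in UM-UC-3. The exception was the uroplakin UPK3A, a defining gene of mature urothelium, which was at 0.08 TPM or less in all 8 libraries, and GRHL3 was only at 1.94 to 4.37 TPM in RT112. Of the 4 mesenchymal markers VIM (2852 to 3142 TPM in UM-UC-3), ZEB1 and ZEB2 were higher in UM-UC-3, while the cadherin CDH2 overlapped between the lines. The leukocyte genes PTPRC and CD3E were at 0.20 TPM or less, whereas CD68, a lysosomal protein and macrophage marker, was at 272 to 279 TPM in UM-UC-3 and 14.2 to 19.5 TPM in RT112. The 4 fibroblast and endothelial markers summed to 3.03 to 9.12 TPM. Depth, estimated from the steps between low values, was 29250000 to 34150000 reads per library, and every member had at least 494 estimated reads in every library. A depth 2 times as large gives whole reads too, so these read numbers are a guide only.

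Promoters of 6 members are printed here, 5 with large differences between the lines and that of PLK1 as a mitotic gene with a small one, since the cell cycle RNAs are timed largely at transcription. Each is the run of 120 bases before the annotated start, 5′ to 3′ on the strand of the gene, from RefSeq on GRCh38.p14. GINS2 (chr16:85688955-85689074, minus strand), CDT1 (chr16:88803669-88803788, plus strand) and CDC6 (chr17:40287759-40287878, plus strand) were higher in RT112 Scr than in UM-UC-3 Scr. CENPA (chr2:26785936-26786055, plus strand) and CENPF (chr1:214603075-214603194, plus strand) were lower, and PLK1 (chr16:23678769-23678888, plus strand) is a mitotic gene that was higher. Capitals mark matches to the CHR element of mitotic genes (TTTGAA) and to the CCAAT box (CCAAT), on either strand.
GINS2: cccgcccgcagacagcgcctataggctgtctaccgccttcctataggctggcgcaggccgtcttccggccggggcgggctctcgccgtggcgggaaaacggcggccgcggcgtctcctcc
CDT1: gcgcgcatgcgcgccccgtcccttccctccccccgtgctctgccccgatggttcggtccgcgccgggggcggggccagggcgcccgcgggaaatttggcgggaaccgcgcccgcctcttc
CDC6: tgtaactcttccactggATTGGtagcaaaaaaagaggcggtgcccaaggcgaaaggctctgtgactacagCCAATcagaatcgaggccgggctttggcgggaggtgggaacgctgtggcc
CENPA: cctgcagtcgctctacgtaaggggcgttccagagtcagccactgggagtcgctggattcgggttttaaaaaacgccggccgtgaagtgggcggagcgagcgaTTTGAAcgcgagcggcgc
CENPF: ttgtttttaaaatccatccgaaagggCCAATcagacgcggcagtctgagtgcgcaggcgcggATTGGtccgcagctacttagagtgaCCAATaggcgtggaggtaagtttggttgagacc
PLK1: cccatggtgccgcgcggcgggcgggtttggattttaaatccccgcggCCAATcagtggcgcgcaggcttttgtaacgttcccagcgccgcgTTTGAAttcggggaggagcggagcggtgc
No match in a window says only that these letters are not in it. Of the 6 windows, those of CENPA and PLK1 held the CHR letters, close to the start, and those of CDC6, CENPF and PLK1 held at least 1 CCAAT box.

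These were abundant RNAs. Members ranged from 4.67 TPM (E2F2) to 547 TPM (MCM4) over the 8 libraries, and their sum was 0.795 to 0.832% of all TPM in UM-UC-3 Scr and 0.723 to 0.734% in RT112 Scr. In UM-UC-3 Scr the highest member was RRM2, the regulatory subunit of ribonucleotide reductase, at 541 and 520.1 TPM, followed by UBE2C, the ubiquitin carrier of the APC/C, at 461 and 423 TPM. The lowest was the activator E2F2 at 10.9 and 10.8 TPM. In RT112 Scr the highest was the helicase subunit MCM4 at 547 and 535 TPM, with the replication clamp PCNA next at 536 and 523 TPM, and E2F2 was again the lowest at 4.99 and 5.96 TPM. When the 52 were ordered by mean TPM, the libraries of 29 of the 51 neighbouring pairs overlapped in UM-UC-3 Scr and those of 32 of 51 in RT112 Scr, so the order of most neighbours lies within the spread of the libraries.

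The first comparison asked how the lines differ in these genes without knock-down. In RT112 Scr, the licensing and helicase genes CDC6, CDT1 and GINS2 and the gene of cyclin E1 were 2.51 to 4.36 times as high in mean TPM as in UM-UC-3 Scr, while most genes of the centromere, the APC/C and the spindle were lower, CENPA at 0.315 and UBE2C at 0.393 of the UM-UC-3 level. By limma on the log2(TPM + 0.1) scale, and with p adjusted by Benjamini-Hochberg over 19201 genes, 40 of the 52 members were called at an adjusted p under 0.05, 12 of them higher and 28 lower in RT112 (76.9% of members, against 51.6% of all genes tested). Among all genes 25.3% were called higher and 26.3% lower, and among the members 23.1% higher and 53.8% lower. Since all members are well expressed, the genes that average 1 TPM or more are the closer background, and of these 31.7% were called higher and 32.9% lower. The median log2 difference was -0.30 over the members and -0.06 over all genes tested. Of the 22 genes of G1/S and replication, 7 were called higher and 9 lower (31.8% and 40.9%), with a median of -0.15. The share called higher was thus that of the closer background. Of the 30 genes of G2/M and mitosis 5 were called higher and 19 lower (16.7% and 63.3%), with a median of -0.43. The summed level shows the same split, since the mitotic genes took 0.470 to 0.478% of all TPM in UM-UC-3 Scr and 0.376 to 0.382% in RT112 Scr, whereas the replication genes took 0.325 to 0.354% and 0.347 to 0.352%. In RNA from whole cultures, fewer cells in a phase and less of these RNAs per cell cannot be told apart.

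Limits of these counts come from the 2 libraries per group. With 1 library left out the test keeps 1 residual degree of freedom, and 1 group holds a single library. Fewer members were then called in either direction, and fewer of all genes too. The median log2 difference over the members ran from -0.34 to -0.25. With a prior variance that ignores the mean level (eBayes without trend), 5 were called higher and 22 lower. In that fit 8675 of all 19201 genes were called, against 9909 with the trend.

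**Figure D1:**
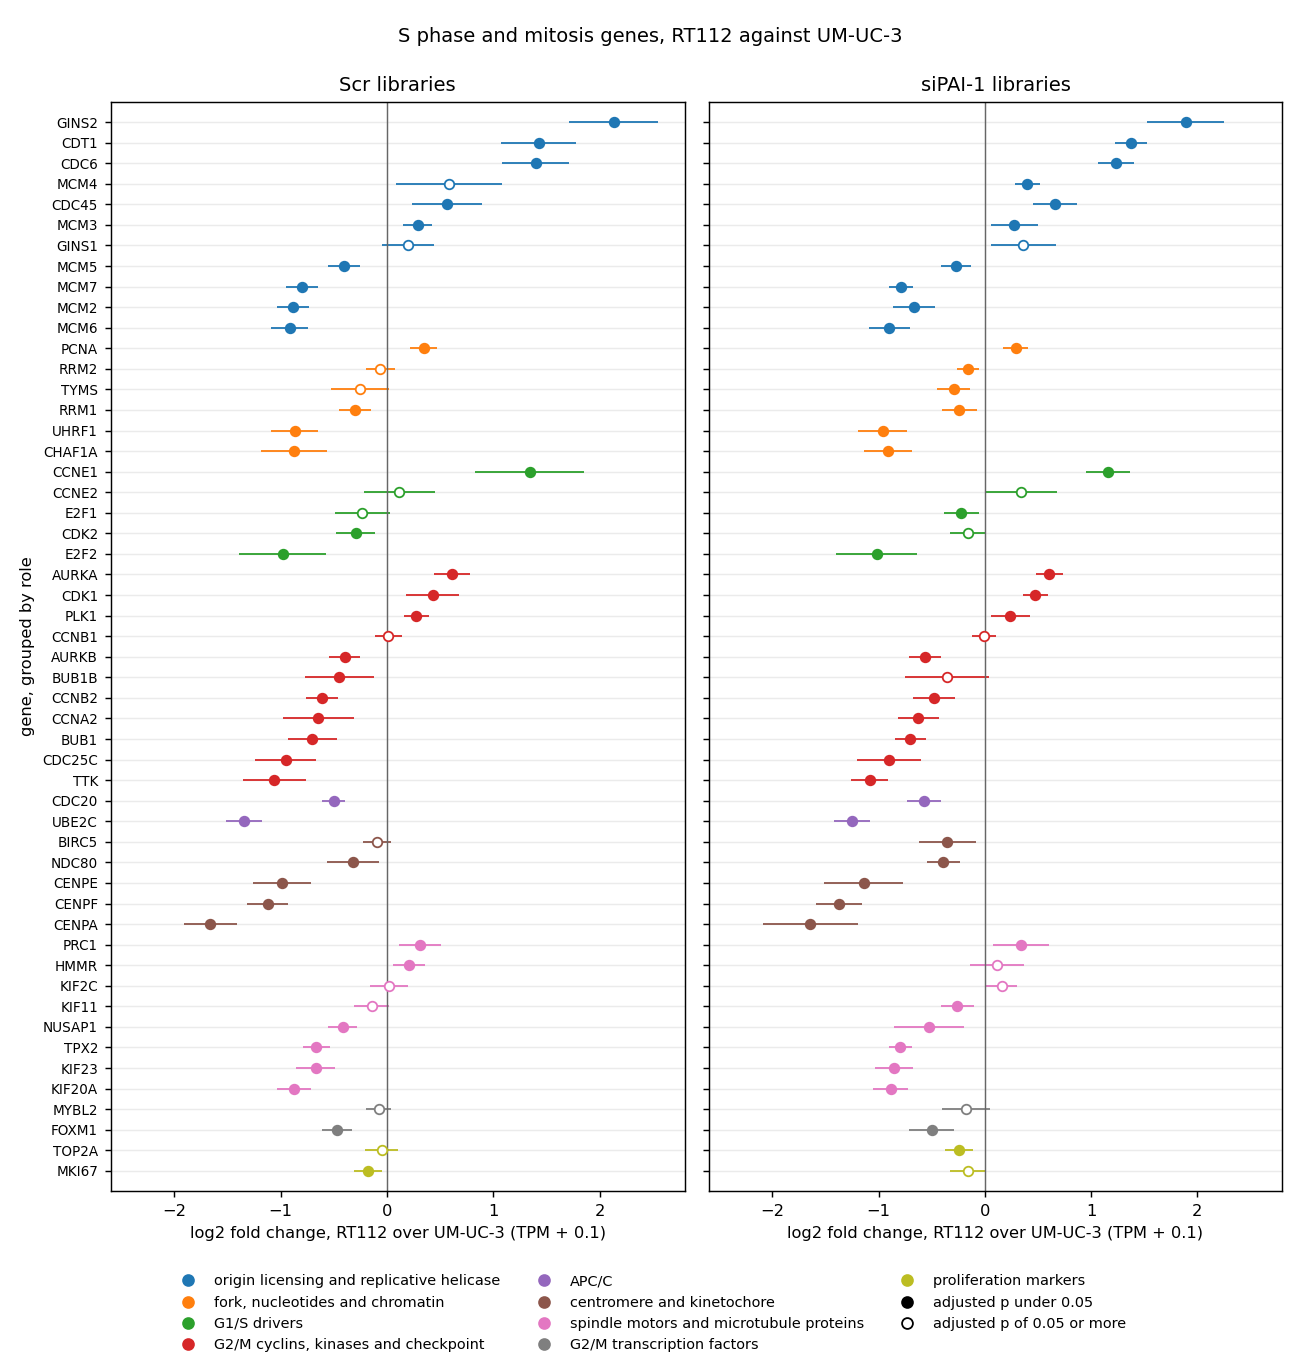
Log2 fold change of RT112 over UM-UC-3 for the 52 members, on the scale of log2(TPM + 0.1), in the 4 Scr libraries (left) and in the 4 siPAI-1 libraries (right). Points are limma estimates, lines their 95% intervals, colours the roles, and filled points have an adjusted p under 0.05. GINS2, CDT1, CDC6 and CCNE1 lie at 1.34 or above in Scr, CENPA at -1.66, and the same genes lie at both ends in siPAI-1.

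Among the 11 genes of origin licensing and the helicase, 5 were called higher and 4 lower in RT112. GINS2, a subunit of the GINS complex, showed the largest difference of the 52, at 25.4 and 19.3 TPM in UM-UC-3 Scr and 95.7 and 98.8 TPM in RT112 Scr (log2 fold change 2.13, SE 0.15, adjusted p = 0.0012). The loader CDT1 went from 48.2 and 38.7 TPM to 113 and 119.8 TPM (log2 fold change 1.43, SE 0.13, adjusted p = 0.00205). CDC6, which loads the ring together with CDT1, went from 84.0 and 69.6 TPM to 194 and 209.7 TPM (log2 fold change 1.40, SE 0.11, adjusted p = 0.00164). For all 3 both RT112 libraries were above both UM-UC-3 libraries. CDC45, the partner of GINS, was also called higher, at 59.7 and 49.0 TPM against 77.3 and 82.6 TPM. GINS1, another GINS subunit, was at 56.9 and 49.5 TPM in UM-UC-3 and at 61.3 and 60.6 TPM in RT112 and was not called, with a 95% interval of the log2 difference from -0.05 to 0.45. Of this complex GINS2 was called and GINS1 was not, although both RT112 libraries of GINS1 also lay above both of UM-UC-3. The difference between the 2 genes was not tested.

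The 6 subunits of the MCM ring, which sit in the ring in equal copies, did not move together. MCM2 was at 198 and 209 TPM in UM-UC-3 Scr and at 112 and 108 TPM in RT112 Scr (log2 fold change -0.88, SE 0.054, adjusted p = 0.000911). MCM6 was at 114 and 118 TPM and 59.1 and 63.4 TPM (log2 fold change -0.92, SE 0.063, adjusted p = 0.00115), and MCM7 at 318 and 302 TPM and 182 and 173 TPM (log2 fold change -0.80, SE 0.055, adjusted p = 0.00111). These 3 and MCM5 were called lower in RT112. MCM3, in contrast, was called higher, at 121 and 123 TPM against 152 and 146 TPM (log2 fold change 0.29, SE 0.049, adjusted p = 0.0113). MCM4, the most abundant subunit in both lines, was at 429 and 303 TPM and 547 and 535 TPM and narrowly missed the threshold (adjusted p = 0.0581, given because its values drew attention). The ratio of MCM4 to MCM6 was 3.77 and 2.58 in UM-UC-3 Scr against 9.25 and 8.45 in RT112 Scr, and stayed at 3.21 and 3.26 and at 7.76 and 8.16 in the siPAI-1 libraries. The libraries of the lines did not overlap in this ratio.

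**Figure D2:**
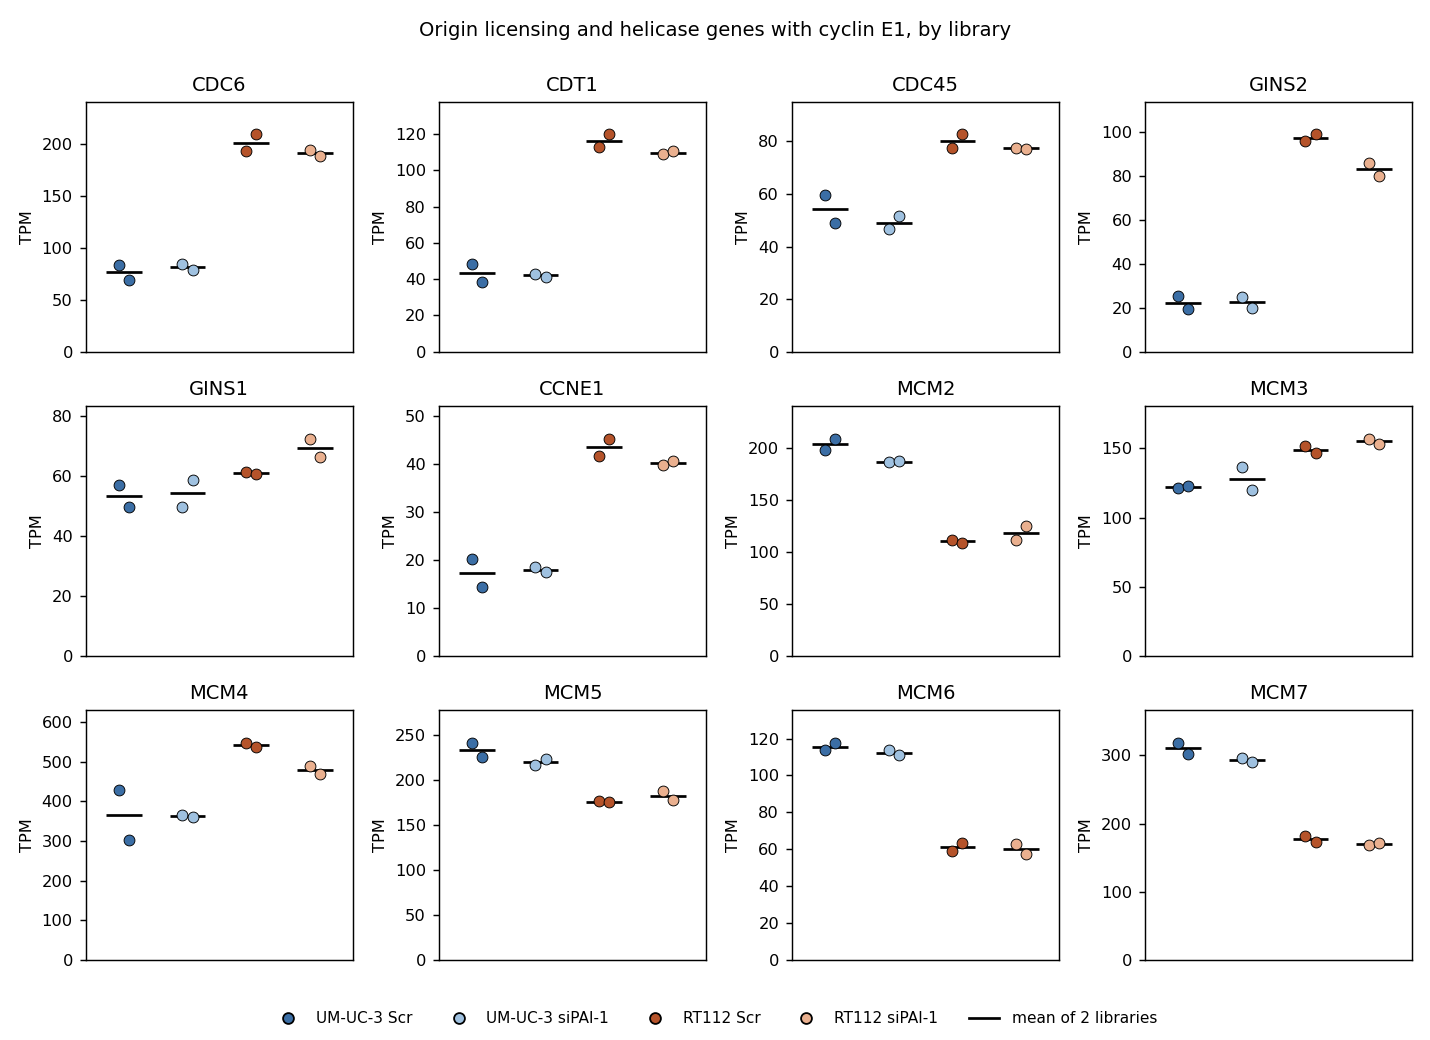
TPM in each library of the 11 licensing and helicase genes and of CCNE1, with 1 panel per gene, a y axis from 0, 1 point per library and a bar at the mean of 2 libraries. CDC6, CDT1, CDC45, GINS2, CCNE1, MCM3, MCM4 and, narrowly, GINS1 stand higher in all RT112 libraries, and MCM2, MCM5, MCM6 and MCM7 lower. UM-UC-3 Scr replicate 1 lies well above replicate 2 for MCM4 (429 and 303 TPM).

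UM-UC-3 Scr replicate 1 stood apart from replicate 2 in these genes. The ratio of the replicates had a median of 0.20 on the log2 scale over the 11 licensing and helicase genes. It was 0.02 over the 30 mitotic genes and 0.06 over all genes averaging 1 TPM or more. Only the size of the gap set the licensing genes apart. Replicate 1 was higher for 8 of these 11, but also for 22 of the 30 mitotic genes and for 7660 of all 12376 such genes. The widest gap was that of MCM4, 0.50, followed by CCNE1, 0.48. In the 3 other groups the median of the licensing genes was 0.03 in UM-UC-3 siPAI-1, 0.01 in RT112 Scr and 0.05 in RT112 siPAI-1. The part of this gap in the results below was not tested, other than by leaving each library out.

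Of the 6 genes of the fork, nucleotide supply and chromatin, 1 was called higher in RT112 and 3 lower. PCNA, the clamp that holds DNA polymerase on its template, was at 427 and 407 TPM in UM-UC-3 Scr and 536 and 523 TPM in RT112 Scr (log2 fold change 0.34, SE 0.046, adjusted p = 0.00587). CHAF1A, the large subunit of the chromatin assembly factor that puts histones on new DNA, was at 63.1 and 76.5 TPM and 38.2 and 37.4 TPM, and UHRF1, which keeps DNA methylation through replication, at 127 and 112 TPM and 66.1 and 64.5 TPM. Both were called lower, as was RRM1, the catalytic subunit of ribonucleotide reductase. RRM2 (95% interval of the log2 difference -0.20 to 0.08) and the thymidylate synthase TYMS (-0.53 to 0.01) were not called.

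Of the 5 G1/S drivers 1 was called higher in RT112 and 2 lower, and the balance of the cyclins E differed between the lines. CCNE1 was at 20.1 and 14.5 TPM in UM-UC-3 Scr and at 41.6 and 45.3 TPM in RT112 Scr (log2 fold change 1.34, SE 0.19, adjusted p = 0.00648). CCNE2, the other cyclin E, was at 40.3 and 42.6 TPM and 40.6 and 49.7 TPM and was not called, with an interval from -0.22 to 0.45. The ratio of CCNE1 to CCNE2 was 0.499 and 0.340 in UM-UC-3 Scr and 1.02 and 0.912 in RT112 Scr, so that CCNE2 was the main cyclin E RNA in UM-UC-3 and both genes were near par in RT112 Scr. Their partner CDK2 and the activator E2F2 were called lower in RT112, E2F2 at 10.9 and 10.8 TPM against 4.99 and 5.96 TPM, and E2F1 was not called.

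Of the 11 G2/M cyclins, kinases and checkpoint genes, 3 were called higher in RT112 and 7 lower. The higher ones were kinases that start mitosis. AURKA, the Aurora kinase of the spindle poles, was at 100.2 and 94.6 TPM in UM-UC-3 Scr and 144 and 153 TPM in RT112 Scr (log2 fold change 0.61, SE 0.062, adjusted p = 0.00286). PLK1 was at 191 and 189 TPM and 233 and 227 TPM (log2 fold change 0.28, SE 0.044, adjusted p = 0.00931), and CDK1 at 132 and 149 TPM and 180.0 and 199 TPM. In all 3 the libraries of the lines did not overlap. AURKB, the Aurora kinase of the centromere, went the other way, at 225 and 223 TPM and 175 and 165 TPM, so that the ratio of AURKA to AURKB was 0.446 and 0.424 in UM-UC-3 Scr and 0.823 and 0.932 in RT112 Scr. The checkpoint kinases TTK, 78.7 and 71.8 TPM against 38.8 and 33.3 TPM, and BUB1, 82.4 and 72.9 TPM against 47.9 and 47.2 TPM, were called lower with BUB1B, CCNA2, CCNB2 and the phosphatase CDC25C. Cyclin B1 was nearly level, with CCNB1 at 338 and 349 TPM in UM-UC-3 Scr against 352 and 339.9 TPM in RT112, and the 95% interval of its log2 difference ran from -0.12 to 0.14.

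Both APC/C genes were called lower in RT112. UBE2C went from 461 and 423 TPM in UM-UC-3 Scr to 177 and 171 TPM in RT112 Scr (log2 fold change -1.35, SE 0.061, adjusted p = 0.000543), and CDC20, which brings substrates to the complex, was at 375 and 376 TPM and 263 and 268 TPM. Of the 5 centromere and kinetochore genes 4 were called lower and none higher. CENPA, the histone H3 variant that marks the centromere, was at 67.5 and 63.2 TPM and 21.7 and 19.5 TPM (log2 fold change -1.66, SE 0.09, adjusted p = 0.000738). CENPF, a large protein of the outer kinetochore, was at 146 and 147 TPM and 63.9 and 70.7 TPM (log2 fold change -1.12, SE 0.07, adjusted p = 0.000929), and the kinetochore motor CENPE at 16.8 and 16.6 TPM and 8.28 and 8.49 TPM. The 5 centromere genes together took 0.0444 to 0.045% of all TPM in UM-UC-3 Scr and 0.0286 to 0.0299% in RT112 Scr. BIRC5 (survivin), which works with AURKB at the centromere, was the exception in Scr, at 154 and 158 TPM and 144 and 148 TPM, and was not called there.

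Among the 8 spindle genes 4 were called lower in RT112 and 2 higher. The kinesin KIF20A, which acts in cytokinesis, was at 151 and 151 TPM in UM-UC-3 Scr and 85.2 and 79.4 TPM in RT112 Scr (log2 fold change -0.88, SE 0.059, adjusted p = 0.00107), and TPX2, the activator of AURKA on the spindle, at 340.3 and 330.0 TPM and 209 and 214 TPM (log2 fold change -0.66, SE 0.045, adjusted p = 0.00108). KIF23 and NUSAP1 were lower too. AURKA and its activator were thus called in opposite directions, with a ratio of AURKA to TPX2 of 0.295 and 0.287 in UM-UC-3 Scr and 0.692 and 0.716 in RT112 Scr. The higher genes were PRC1, which bundles the midzone microtubules, at 188 and 198 TPM and 228 and 252 TPM, and HMMR at 67.8 and 67.1 TPM and 78.8 and 76.9 TPM. The kinesins KIF11 and KIF2C were not called, with intervals of the log2 difference from -0.31 to 0.02 and from -0.16 to 0.20.

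**Figure D3:**
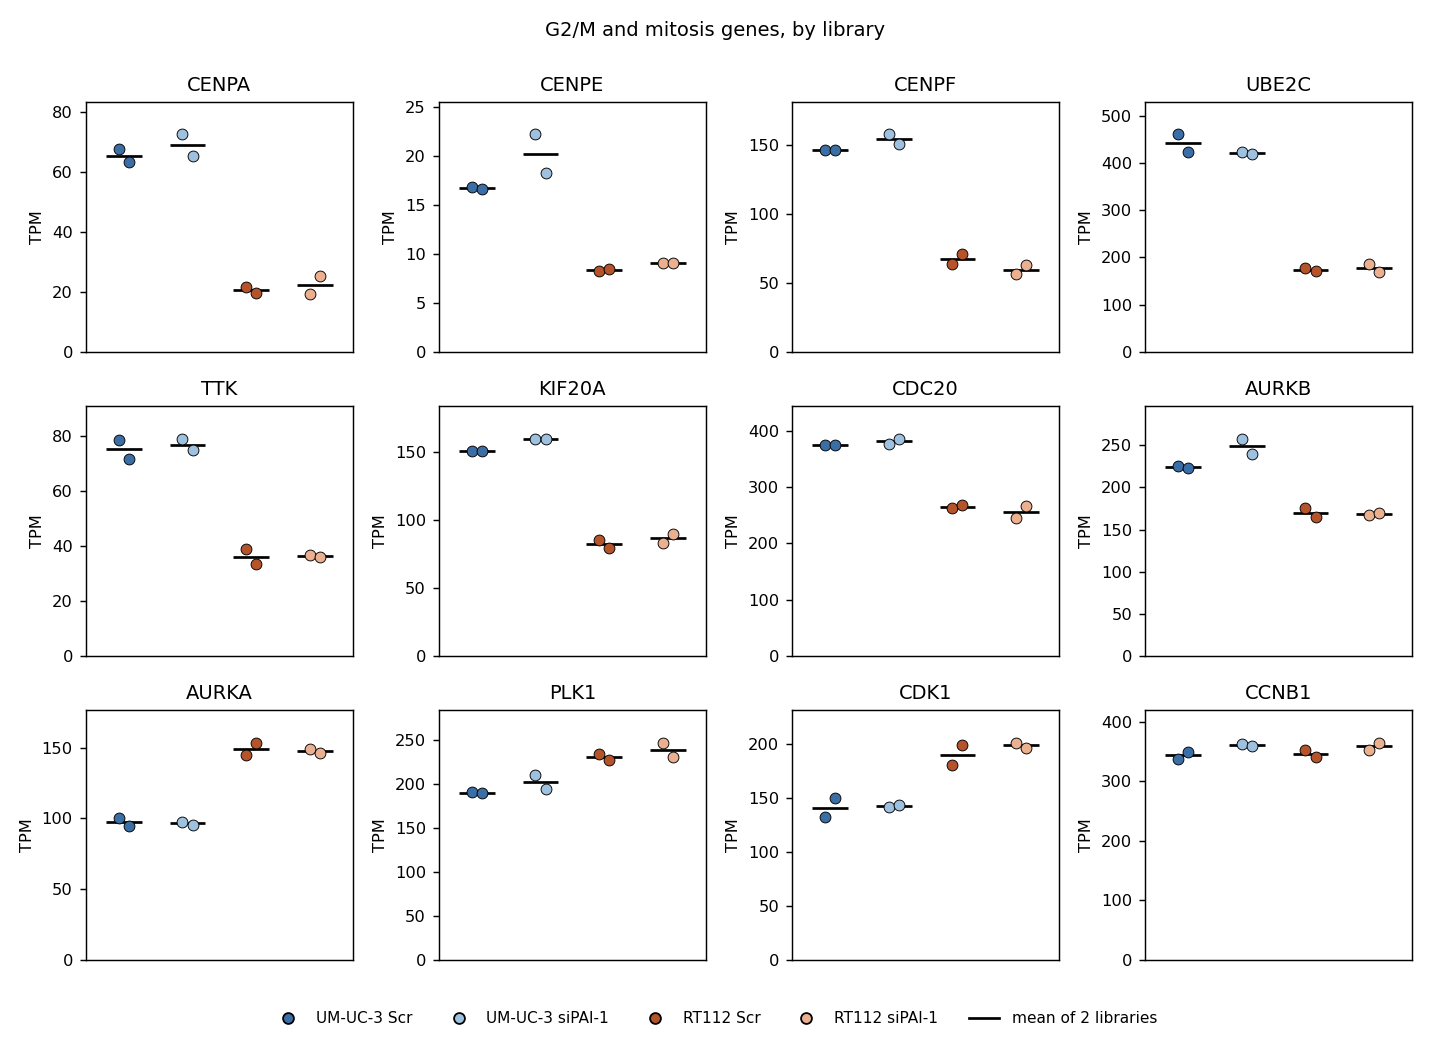
TPM in each library of 12 genes of G2/M and mitosis, drawn as for the licensing genes with a y axis from 0 and a bar at the mean of 2 libraries. CENPA, CENPE, CENPF, UBE2C, TTK, KIF20A, CDC20 and AURKB stand lower in all RT112 libraries, AURKA, PLK1 and CDK1 higher, and CCNB1 lies at 338 to 364 TPM in all 8.

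MKI67 and TOP2A, often read as general markers of growth, differed little between the lines in Scr. MKI67, the antigen of the Ki-67 antibody, was at 108 and 108 TPM in UM-UC-3 Scr and 94.4 and 96.7 TPM in RT112 Scr and was called lower (adjusted p = 0.0428), with a mean ratio of 0.883. TOP2A, the topoisomerase that untangles replicated chromosomes, was at 278 and 269 TPM and 255 and 274 TPM, and its libraries overlapped. In the siPAI-1 libraries TOP2A was called lower in RT112, at 293 and 305 TPM in UM-UC-3 against 248 and 257 TPM, and MKI67 was not called. The transcription factor FOXM1 was called lower and MYBL2, at 203 and 200.5 TPM and 191 and 192 TPM, was not.

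A related list held 73 other cell cycle genes, taken by their known roles but with earlier results of these data known. Of its 41 genes of mitosis 4 were called higher in RT112 Scr and 28 lower, with a median log2 difference of -0.40, and of its 32 genes of replication 9 were called higher and 10 lower, with a median of 0.10. The replication list (28.1% higher and 31.2% lower) thus lay near the 31.7% and 32.9% of all genes averaging 1 TPM or more, and the mitosis list had 9.76% higher and 68.3% lower. Among the higher ones SLBP, which binds the stem-loop of histone mRNAs, was at 126 and 127 TPM in UM-UC-3 Scr and 264 and 263 TPM in RT112 Scr (log2 fold change 1.06, SE 0.042, adjusted p = 0.000466). GMNN (geminin), the inhibitor of CDT1, was at 74.0 and 70.8 TPM and 117 and 124 TPM (log2 fold change 0.73, SE 0.061, adjusted p = 0.00173), and CHAF1B, the partner of CHAF1A in the same assembly factor, at 18.1 and 18.8 TPM and 32.6 and 34.0 TPM (log2 fold change 0.85, SE 0.077, adjusted p = 0.00217). CHAF1A and CHAF1B were therefore called in opposite directions, while CDT1 and its inhibitor were both higher, with a ratio of CDT1 to GMNN of 0.652 and 0.546 in UM-UC-3 Scr and 0.964 and 0.969 in RT112 Scr. On the lower side, the phosphatase CDC25B was at 263 and 250.03 TPM and 92.2 and 89.2 TPM (log2 fold change -1.50, SE 0.053, adjusted p = 0.000385). The condensin subunit SMC4 was at 281 and 288 TPM and 122 and 124 TPM (log2 fold change -1.21, SE 0.044, adjusted p = 0.000401), and ECT2, which sets the place of the cleavage furrow, at 169.6 and 179 TPM and 70.8 and 71.5 TPM (log2 fold change -1.29, SE 0.054, adjusted p = 0.000487).

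The lines were compared again in the 4 siPAI-1 libraries, which the Scr comparison does not use. There 12 members were called higher in RT112 and 31 lower (82.7% of members, against 52.2% of the 19359 genes tested). The background was 26.2% higher and 26.1% lower over all genes, and 32.5% higher and 32.9% lower over those averaging 1 TPM or more. With 1 library left out, fewer members were called in either direction, and fewer of all genes too. The median log2 difference over the members then ran from -0.29 to -0.27. With all 4 libraries, 11 members were called higher and 25 lower in both comparisons, 4 only in Scr and 7 only in siPAI-1, none in opposite directions, and 51 of 52 had the same sign. The exception was CCNB1, called in neither. The log2 differences of the same gene in Scr and in siPAI-1 differed by a median of 0.09 and by at most 0.26. GINS2 was at 24.9 and 19.9 TPM in UM-UC-3 siPAI-1 and 85.8 and 80.0 TPM in RT112 siPAI-1, and CENPA at 72.5 and 65.4 TPM and 19.2 and 25.3 TPM. MCM4, with replicates closer together in these libraries, was called higher, at 365 and 361 TPM and 489 and 468 TPM. The others called only in siPAI-1 were RRM2, TYMS, E2F1, BIRC5, KIF11 and TOP2A, all of them lower in RT112. With BIRC5, all 5 centromere and kinetochore genes were called lower in siPAI-1.

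Position in the genome was set beside these differences after they were seen. GINS2 and CDT1, the members with the highest log2 differences, start 3.13 Mb apart on chromosome 16. The other genes averaging 1 TPM or more that start within 2 Mb of GINS2 had a median log2 difference of 1.38 between RT112 Scr and UM-UC-3 Scr (27 genes, 24 higher in RT112), and those around CDT1 a median of 1.14 (40 genes, 33 higher), where the median over the 11492 genes placed was -0.04. The neighbours of PLK1, on the same chromosome, had a median of 0.38 over 22 genes. Around the other members the picture was mixed. The neighbours had a median of 0.23 over 61 genes around CDC6, -0.38 over 6 around CCNE1, -0.27 over 44 around CENPA and -0.52 over 40 around UBE2C, in each case closer to 0 than the member. For 9 of the 40 members called between the lines the neighbours had a median of the same sign and at least as far from 0 as the member itself. Among them were CHAF1A at -0.88 with a median of -0.94 over 68 neighbours, UHRF1 at -0.87 with -0.91 over 71 and CCNA2 at -0.65 with -0.94 over 10, all chosen after their values were seen. For 29 of the 40 the sign of the median was that of the member, and for 11 it was the other sign. The windows of CHAF1A and UHRF1 on chromosome 19 overlap, as do those of GINS2 and CDT1, so such members share neighbours. The median of the genes placed was -0.67 on chromosome 19 and 0.34 on chromosome 16. How often other genes match their neighbours in this way was not counted. The 7 members on chromosome 20 differed among themselves, from UBE2C at -1.35 to AURKA at 0.61. Copy number was not measured here, and the part of the neighbourhood in the members' differences was not tested.

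Promoter letters were counted by role and by direction between the lines. Promoters were found by symbol for 42 of the 52 members, and the 250 bases before each start were searched on both strands. The CHR letters TTTGAA stood in 12 of 24 promoters of G2/M and mitosis (50.0%) and in 1 of 18 of G1/S and replication (5.56%), against 13.6% of all 27305 promoters. The CCAAT box was in 18 of the 24 and in 13 of the 18, and in 33.0% of all promoters. For E2F only the strings TTGGCGC and TTCGCGC were searched. At least 1 of them was held by 12.5% of the mitotic promoters and 27.8% of the replication promoters, against 4.37% of all. E2F sites spelled otherwise were not searched, so a promoter without these strings may still hold one. By direction, the CHR letters were in 4 of the 11 promoters of genes called higher in RT112 Scr (36.4%), in 7 of the 22 of genes called lower (31.8%) and in 2 of the 9 of genes not called (22.2%). These are matches of letters, described with no test.

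The other question was whether these genes moved when PAI-1 was knocked down. In UM-UC-3 no member was called, and all differences were small, with log2 fold changes of siPAI-1 over Scr from -0.18 (E2F2) to 0.27 (CENPE) and a median of 0.02. The limma test called 0% of the 18528 genes at an adjusted p under 0.05, so the count of 0 members has to be read with the intervals. Each of the 52 intervals of 95% lay within 2-fold in either direction, 49 lay within 0.5 on the log2 scale, and the widest reached 1.5-fold, for CENPE. At an unadjusted p under 0.05, 1 member was higher, AURKB, and none lower, where 2.6% of all genes were higher and 3.41% lower.

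Within these bounds the members were counted by the sign of their log2 fold change in UM-UC-3. Of the 30 genes of G2/M and mitosis 23 had a positive log2 fold change, with a median of 0.07, and of the 22 genes of G1/S and replication 8 did, with a median of -0.04, where 5854 of the 12067 genes averaging 1 TPM or more did. The related list did not show this split, with 22 of 41 genes of mitosis positive (median 0.0077) and 19 of 32 genes of replication (median 0.02). Both siPAI-1 libraries were above both Scr libraries for 14 members, all of them mitotic, and below for 11, of which 8 belong to G1/S and replication (17.4% and 20.4% of all genes averaging 1 TPM or more). With FPKM the members above Scr were 10 mitotic genes and 1 gene of G1/S and replication, and after rescaling by the median ratio 12 and 1. CENPE was at 16.8 and 16.6 TPM in Scr and 22.2 and 18.2 TPM in siPAI-1 (log2 fold change 0.27, SE 0.13, adjusted p = 0.858). AURKB was at 225 and 223 TPM and 258 and 240.2 TPM (log2 fold change 0.15, SE 0.057, adjusted p = 0.823), TOP2A at 278 and 269 TPM and 293 and 305 TPM (log2 fold change 0.13, SE 0.051, adjusted p = 0.832) and the spindle motor KIF11 at 62.5 and 60.1 TPM and 64.5 and 66.7 TPM. In these 4 the groups did not overlap, and none passed the test after adjustment. On the other side, E2F2 was at 10.9 and 10.8 TPM and 9.06 and 10.2 TPM (log2 fold change -0.18, SE 0.13, adjusted p = 0.858) and MCM2 at 198 and 209 TPM and 187 and 187 TPM (log2 fold change -0.12, SE 0.053, adjusted p = 0.854), again without overlap. CDC45 overlapped, and its log2 fold change of -0.14 became 0.00 without UM-UC-3 Scr replicate 1. The median over the members ran from -0.03 without UM-UC-3 Scr replicate 2 to 0.07 without replicate 1, so its sign rests on which Scr library is used.

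**Figure D4:**
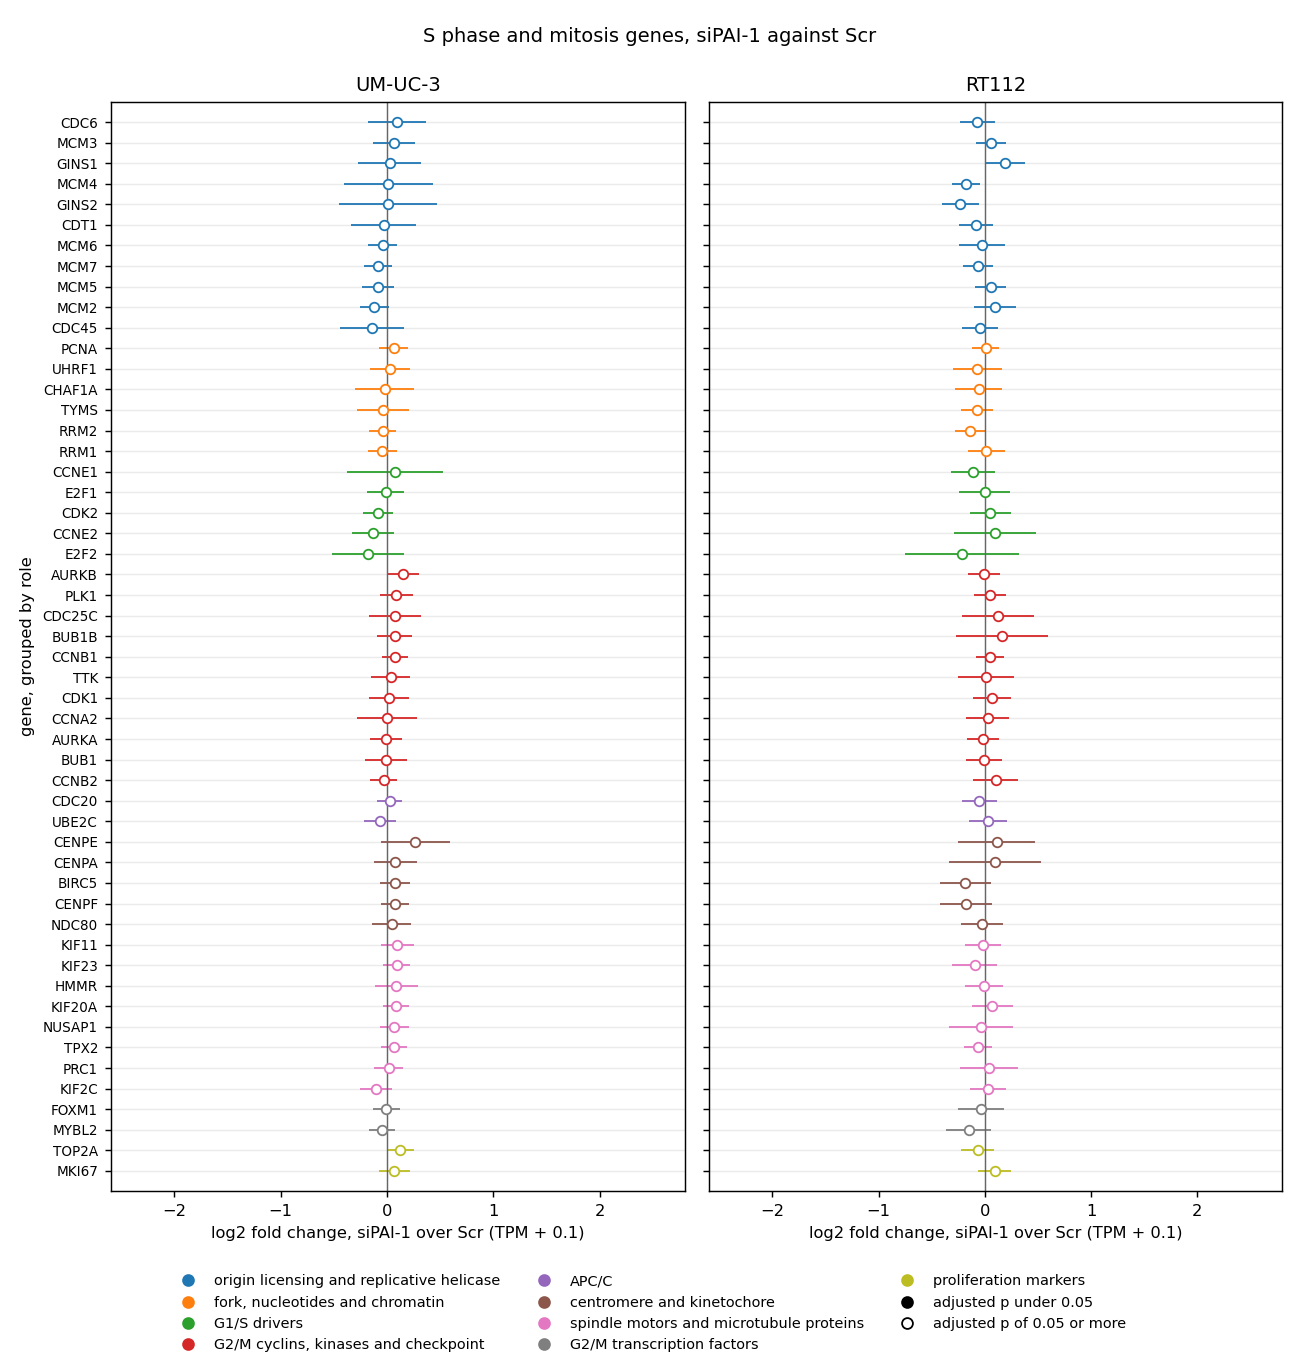
Log2 fold change of siPAI-1 over Scr for the 52 members in UM-UC-3 (left) and RT112 (right), on the axis used for the comparison of the lines. Points are limma estimates with 95% intervals, and all are open because none had an adjusted p under 0.05. The estimates stay between -0.23 and 0.27, against -1.66 to 2.13 between the lines.

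In RT112 no member was called either, and log2 fold changes ran from -0.23 (GINS2) to 0.19 (GINS1) with a median of -0.01. The share called was 0% of 18437 genes. All 52 intervals lay within 2-fold, 49 of them within 0.5, and the widest reached 1.68-fold, for E2F2, the least abundant member. At an unadjusted p under 0.05, 2 members were lower and 0 higher, where 2.42% of all genes were lower and 3.35% higher. They were GINS2, at 95.7 and 98.8 TPM in Scr and 85.8 and 80.0 TPM in siPAI-1 (log2 fold change -0.23, SE 0.065, adjusted p = 0.838), and MCM4, at 547 and 535 TPM and 489 and 468 TPM (log2 fold change -0.18, SE 0.051, adjusted p = 0.838). Both fell short of the adjusted threshold, with siPAI-1 below Scr in every library. GINS1, the partner of GINS2, had the largest positive value, at 61.3 and 60.6 TPM and 72.5 and 66.4 TPM (log2 fold change 0.19, SE 0.072, adjusted p = 0.838).

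By role, 15 of the 30 genes of G2/M and mitosis had a positive log2 fold change in RT112, with a median of 0.0023. Of the 22 genes of G1/S and replication 8 were positive, with a median of -0.05. Both siPAI-1 libraries lay above both Scr libraries for 6 members and below for 12 (20% and 17.3% of all genes averaging 1 TPM or more). BIRC5 was at 144 and 148 TPM in Scr and 119 and 139 TPM in siPAI-1 (log2 fold change -0.18, SE 0.092, adjusted p = 0.838). BUB1B, a checkpoint gene whose replicates differ by as much as its groups, was at 56.8 and 69.5 TPM and 61.9 and 79.9 TPM, and its log2 fold change of 0.16 turned to -0.02 without RT112 siPAI-1 replicate 2.

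The siPAI-1 effects of the lines were compared directly in a fit of all 8 libraries. No member differed at an adjusted p under 0.05 (0% of the 20274 genes tested), and 1 did at an unadjusted p under 0.05, where 2.76% of all genes were lower and 4% higher. This was TOP2A, above Scr in both siPAI-1 libraries of UM-UC-3 and overlapping in RT112 (difference -0.19, SE 0.075, adjusted p = 0.715). MCM2 (difference 0.22, adjusted p = 0.737) and CENPF (difference -0.25, adjusted p = 0.744) came next. All 52 intervals of the difference lay within 2-fold. Without overlap between groups, 7 members lay on the same side of Scr in both lines, CCNB1, CENPE and MKI67 above it and MCM7, RRM2, E2F2 and MYBL2 below it, each by small amounts that did not pass the test. These are 13.5% of the members, against 6.83% of all genes averaging 1 TPM or more, and another 4 members (7.69%, against 7.09% of these genes) lay on opposite sides in the lines. Both counts were made in TPM only, and the same-side count includes near ties. In RT112, CCNB1 was at 351.99 and 339.92 TPM in Scr and 352.04 and 364.36 TPM in siPAI-1. In UM-UC-3 the nearest RRM2 values were 520.13 TPM in Scr and 519.26 TPM in siPAI-1. The excess over the share of all genes was not tested. MKI67 was at 108 and 108 TPM in UM-UC-3 Scr and 110.2 and 117 TPM in UM-UC-3 siPAI-1, and at 94.4 and 96.7 TPM and 99.1 and 104 TPM in RT112. RRM2 was at 541 and 520.1 TPM in Scr and 510.5 and 519 TPM in siPAI-1 in UM-UC-3, and at 494 and 522 TPM and 468 and 455 TPM in RT112. Of the 73 related genes, none was called in either knock-down comparison. With siPAI-1 in UM-UC-3, 4 of them rose and 1 fell at an unadjusted p under 0.05. The shares of all tested genes that did so there were 2.6% and 3.41%. In RT112, 1 related gene rose and 2 fell at that threshold, where the shares of all tested genes were 3.35% and 2.42%. Counts this small are not read as a contrast between the lines.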

How the data were processed

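The 52 members, the role lists and the 73 related genes were chosen with earlier results of these data known. Libraries were made from poly(A) RNA with a stranded kit and read as single reads of 75 bases. The authors deposited TPM and FPKM per gene. Their methods name STAR, featureCounts and DESeq2, whereas the submitters' processing notes and the column names give STAR 2.5.0 and RSEM 1.2.25 on GRCh38. Raw counts were not used here, so a test of log values took the place of DESeq2. The deposited FPKM of a library is its TPM times a constant, and FPKM served as an alternative unit.

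Groups came from the sample labels, with 2 libraries each. On log2(TPM + 0.1), limma 3.58.1 in R 4.3.3 (lmFit, eBayes with trend, two-sided) was fitted to the 4 libraries of each comparison, or to all 8 for the difference between knock-down effects, over every gene above 0 TPM in any library of that fit. Adjusted p is Benjamini-Hochberg over these genes, and under 0.05 is called. A fold change on this scale understates the change of low genes. The 92 ERCC spike-in entries, all at 0, were left out. The level of the siRNA's target is not reported here. Comparisons that share Scr libraries are not independent of each other. Simulated data gave every gene the same dispersion, the part of the spread beyond counting error, so that low genes varied more. The changed genes were drawn from the better expressed ones only. At a spread near that of the members the fit called nearly all 2-fold changes, and at a larger spread few or none. Real genes differ in dispersion, so the simulation does not show that a 2-fold change would be called here.

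Values with a fold change, SE and adjusted p were limited to the 4 members with the largest positive and the 4 with the largest negative log2 fold change in each knock-down comparison, the 8 with the smallest p per direction between the lines in Scr, the 3 with the smallest p for the difference of effects, and the 3 related genes per direction. Members outside this rule are given by TPM, and any statistic of theirs was chosen after their values were seen. Depth was taken as the total, between 20000000 and 45000000 reads, at which the FPKM of short genes with 1 transcript came closest to whole reads (84.0 to 88.5% of values within 0.2 of a whole read). Positions and promoters are those of RefSeq on GRCh38.p14. Alternatives were pseudocounts of 1 and 0.01 TPM, FPKM, rescaling by the median ratio, a filter at a mean of 1 TPM, all genes above 0 in any of the 8 libraries, 1 fit over all 8 libraries, eBayes without trend, a replicate block, and each replicate left out in turn. Replicate numbers did not pair the libraries, with correlations of their deviations of 0.04 in UM-UC-3 and -0.04 in RT112.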

Additional observations from a re-analysis of the deposited data

Results flagged for a closer look

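In 4 members every siPAI-1 library lay on one side of Scr in UM-UC-3 and on the other side in RT112, and these opposite sides singled them out. They are 7.69% of the 52 members, close to the 7.09% of all genes averaging 1 TPM or more that did the same. CENPF lay above Scr in UM-UC-3 and below it in RT112, a difference of effects of -0.251 on the log2 scale (limma over all 8 libraries, adjusted p = 0.744). BIRC5 did the same, with -0.257 (adjusted p = 0.75), and TPX2 with -0.132 (adjusted p = 0.755). MCM5 was the reverse, below Scr in UM-UC-3 and above it in RT112, with 0.14 (adjusted p = 0.835). None of these differences passed the test, and the largest effect within a line among the 4 was that of BIRC5 in RT112, -0.18.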

How the results depend on the processing

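With 2 libraries per group, each comparison of 4 libraries had 2 residual degrees of freedom. In the knock-down comparisons and in the difference of effects, 0 members were called under every alternative run. With no library left out, few or none of all genes were called in these runs either. The most were 43 of 20274, in RT112 with all genes above 0 in any of the 8 libraries. The counts of 0 are thus not particular to the members. Leaving out 1 library moved the median log2 fold change of the members from -0.0262 to 0.0731 in UM-UC-3 (0.02 in the report), so that it changed sign, and from -0.0233 to -0.00485 in RT112. CDC45 in UM-UC-3 ran from -0.29 to 0.00011 and BUB1B in RT112 from -0.0195 to 0.35 when 1 library was left out. Between the lines in Scr, the members called numbered 0 to 8 higher and 16 to 18 lower with 1 library left out, and 5 higher with eBayes without trend. In siPAI-1 these were 6 to 7 higher and 11 to 21 lower, and the median over the members was -0.301 with FPKM and -0.251 after rescaling by the median ratio, against -0.28. No called member changed sign under either scaling. With 1 library left out, fewer of all genes were called in both line comparisons too. With eBayes without trend, 8675 of all 19201 genes were called in Scr. The cause of these shifts was not tested, beyond the smaller number of libraries.

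With the replicate number as a block, 12 members were called higher and 26 lower between the lines in Scr, 12 higher and 27 lower in siPAI-1, and 0 in the knock-down comparisons. In these fits 9387 of all 19201 genes were called in Scr, 9365 of all 19359 in siPAI-1, and 0 in the knock-down comparisons. Since the replicates share only a number, these values stand here and not beside the results. Of 746 values under alternatives, for 56 results, 700 were classed as unchanged. For a named gene this meant the same direction and side of the threshold, and for a median a move smaller than the spread. A count of members could differ by a set factor, and the counts of 0 in the knock-down comparisons stayed at 0. Of the other values, 23 lost the threshold, 21 moved and 2 changed sign. The estimated depth gives each member at least 494 reads in each library, and counting error and the spread between libraries were not separated.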
